A study of Mus musculus with 26 samples.

Results

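The genes described here build the cornified envelope, the protein and lipid shell of the outermost skin cells, or are switched on as keratinocytes differentiate towards it. The group holds 49 of the 18193 genes that had a probe set of their own on the array. Of these, 29 were listed by name and 20 were added because their symbol begins with Sprr or Lce followed by a digit. Each gene was read from 1 probe set, the one with the highest mean over all arrays.

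In stratified epithelium, basal keratinocytes divide and their daughters move outwards while they change their gene expression. Upper cells make precursor proteins such as involucrin, the small proline-rich proteins (SPRR) and the late cornified envelope proteins (LCE), and transglutaminases crosslink them beneath the cell membrane. Filaggrin packs keratin filaments, lipoxygenases and transporters build the lipid barrier, and kallikrein proteases, held in check by inhibitors, cut the corneodesmosomes so that dead cells are shed. In mouse skin tumours, papillomas and well-differentiated squamous carcinomas keep parts of this programme.

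The study measured RNA from 26 mouse skin cell lines grown in serum and harvested in log phase, with 1 Affymetrix M430 2.0 array per line. The keratinocyte group was C5N and NK (n = 2), both immortalised, and NK came from a null mutant mouse per the labels. P6 was the only line from a papilloma. Squamous carcinoma lines flagged as non-spindle were B9, B9ras, B9rassmad, E4, MSC7A, MSC11B, MSC12, MSCP1, MSCP5, PDV, PDVC57 and SN161 (n = 12). Those flagged as spindle, in which the cells are elongated and resemble fibroblasts, were A5, CarB, CarC, D3, D3DP, H11 and MSN2 (n = 7). The tumours behind the MSCP and MSC lines grew in Spretus/CBA crossed mice and that behind SN161 in a Spretus/NIH cross, while the labels give no strain for the other lines. No group was defined for 2945CA and MSCb1, whose spindle flag is missing, for B9Smad, whose label and flag conflict, or for 1 further keratinocyte-labelled line whose flag denies that it is one. The title of this keratinocyte-labelled line marks it as a null. Because each line has a single array, the p-values below reflect how much lines of a group differ. Precision is limited by how many arrays a group has. Going by their names, B9, B9ras and B9rassmad may be related, as may PDV and PDVC57, and D3 and D3DP. The main fit treated all of them as independent lines. All values below are log2 RMA values, a scale on which array medians lay between 5.04 and 5.15.

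The lines were checked against markers of basal keratinocytes (9 genes such as Krt5, Krt14 and Cdh1) and of fibroblasts (9 measured genes such as Col1a1 and Pdgfrb). The mean of the basal markers was 11.36 and 11.55 in the keratinocyte lines and 12.09 in P6. It lay between 5.02 and 5.40 in the spindle lines, where 2 to 4 of the 9 genes were above the array median. Among non-spindle lines it spanned 4.93 to 11.98, and MSC12, MSC11B and MSC7A, at 4.98, 5.28 and 4.93, lay in or below the range of the spindle lines. The fibroblast mean was 9.74, 7.62 and 8.43 in these 3 lines and 7.91 in MSCP5, which had a basal mean of 11.06. Fibroblast means ran from 5.20 to 10.21 in spindle lines and were 4.26 and 4.50 in the keratinocyte lines. Means of immune, endothelial and melanocyte markers stayed between 3.93 and 5.79 in all lines. Single markers of these lists were higher, such as Cd68 at 9.995 in SN161, Lyz2 at 8.09 in MSC12 and Tek at 6.65 in C5N. Because of their low basal means, results that rest on MSC12, MSC11B and MSC7A are given with and without them.

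Of the 49 genes, 33 varied by 2 log2 units or more between their lowest and their highest line and 20 by 4 or more, whereas 16 varied by less than 2. A gene was counted as raised in a line when its value there was at least 2 log2 units above its own lowest line. The same count was not made over all genes of the array, so it cannot show whether a line is unusual for this group. NK had 31 raised genes, P6 had 19, and the carcinoma lines B9 and MSCP5 had 18 each. B9ras followed with 14, the keratinocyte-labelled line with conflicting labels with 13, MSCP1 and PDV with 12 each, and C5N and SN161 with 11 each. The remaining non-spindle lines were PDVC57 with 8, B9rassmad with 7, E4 with 5, MSC12 with 3, and MSC11B and MSC7A with 2 each. Spindle lines had 1 to 4 raised genes with a median of 2, against 2 to 18 with a median of 9.5 in non-spindle lines, so both groups overlapped in this count. Among lines with no group, B9Smad had 9 raised genes, 2945CA had 3 and MSCb1 had 2. Cells of one type being fewer and each cell holding less RNA cannot be told apart in such bulk samples.

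**Figure D1:**
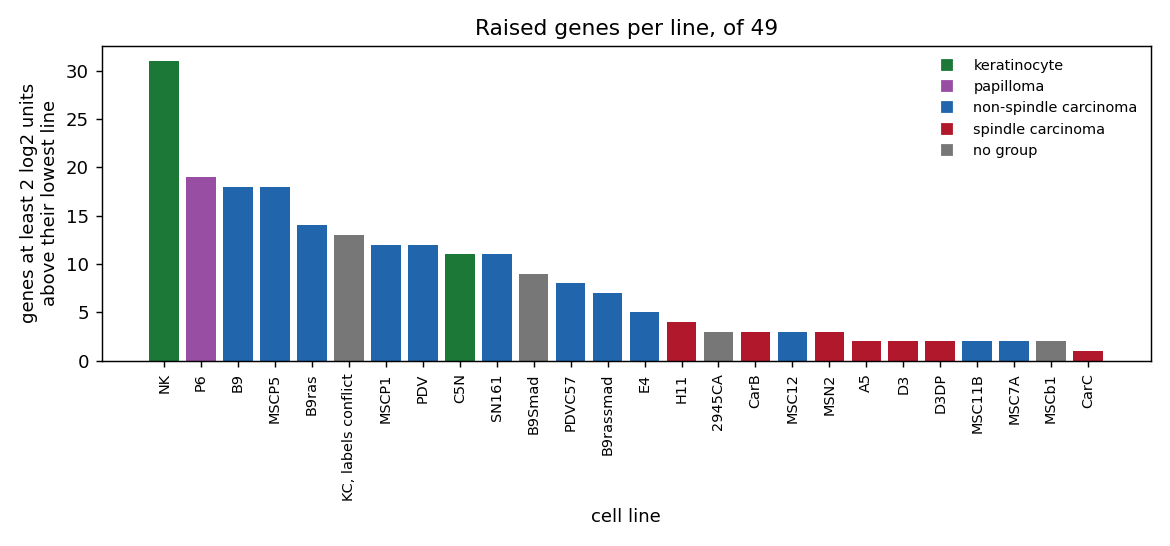
Number of the 49 genes that were at least 2 log2 units above their own lowest line, by cell line, with bars coloured by group (KC, keratinocyte-labelled line whose labels conflict). NK stands at 31, P6 at 19, B9 and MSCP5 at 18, and the 7 spindle lines between 1 and 4.

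NK, P6, B9 and MSCP5 together held the highest value of 36 of the 49 genes. They were also the lines with the most raised genes, counted from the same values, so neither count backs the other. Some maxima were of genes that varied little, such as Klk5 at 4.98 in NK and 4.66 in C5N, and Lce1d at 4.07 in NK and 3.73 in MSCb1. How many genes of the whole array peaked in these lines was not counted. NK alone was the highest line for 17, including Flg, Asprv1, Spink5, Sprr1b and 8 Lce genes. B9 led for 10, including Ivl, Dmkn, Sbsn and Klk8, MSCP5 for 5, including Calml3, Cnfn, Dsg1a and Sprr1a, and P6 for 4, including Sprr3 and Cst6. Both keratinocyte lines thus differed widely from each other. Of the 49 genes, 41 were higher in NK than in C5N, 21 of them by 2 log2 units or more, 27 lay within 2 log2 units, and only Klk10 was higher in C5N by that much.

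**Figure D2:**
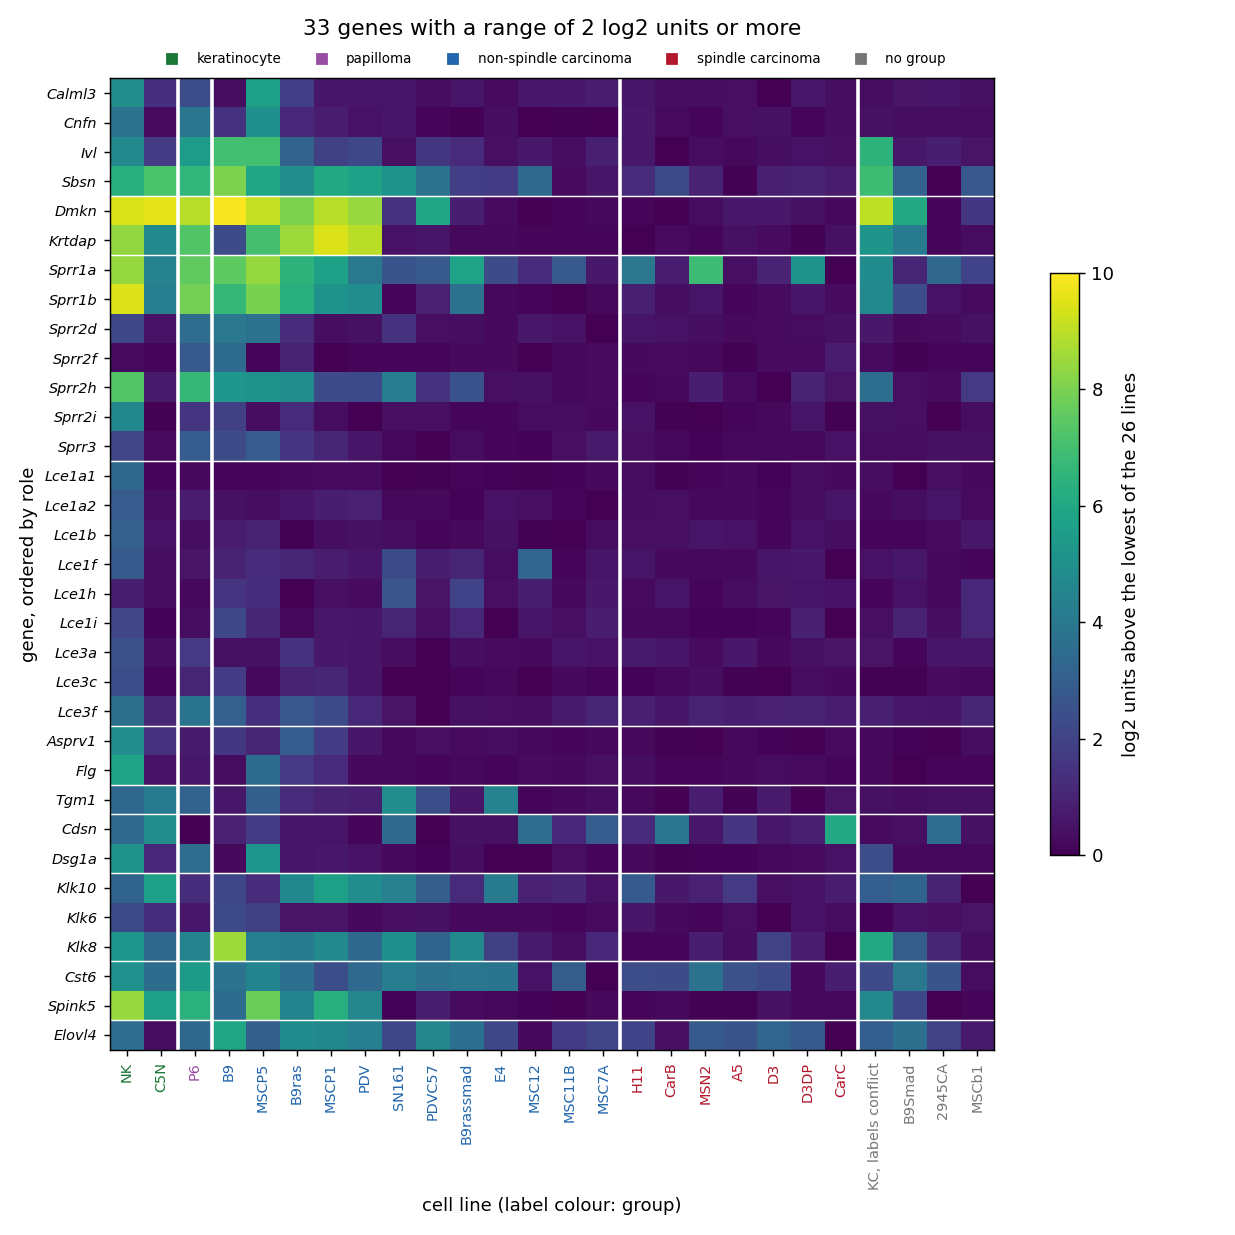
Level of the 33 genes with a range of 2 log2 units or more in each of 26 lines, shown as log2 units above the lowest of the 26 lines, with genes ordered by role and lines by group (KC, keratinocyte-labelled line whose labels conflict). High values stand in NK, P6, B9, MSCP5, B9ras, MSCP1 and PDV, and most rows are dark in the spindle columns. The exceptions are Cst6, Elovl4, Sprr1a in MSN2, D3DP and H11, Cdsn in CarC and CarB, Klk10 in H11 and Sbsn in CarB.

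The Sprr genes sit in the epidermal differentiation complex, a cluster of envelope genes on mouse chromosome 3 that also holds Ivl, Flg and the Lce genes, and 26 of the 49 genes lie on this chromosome. The 250 bases before the first listed transcription start were taken from RefSeq (GRCm38.p6), which had an entry for 42 of the 49 genes. They were searched on both strands for TGANTCA, the core site of AP-1 (Fos and Jun family dimers), and for TATAAA, the TATA box, motifs that do not overlap each other here. TGANTCA was found in 7 of 8 Sprr promoters, 0 of 14 Lce promoters and 5 of 20 others, which makes 12 of 42 or 28.6%, against 6.87% of the promoters of 27025 genes. TATAAA was found in 8 of 8 Sprr promoters and 2 of 14 Lce promoters, 33.3% of the 42, against 13% of all. Sprr2d, Sprr2f, Sprr2h, Sprr2i and Sprr2k each had TGAGTCA beginning 193 to 198 bases before the start. Each also had TATAAA at 29 bases, so the promoters of these similar genes may not be independent counts in either share. The promoters of 3 Sprr genes that were all high in NK, P6, B9 and MSCP5 but differed in other lines, of Ivl from the same cluster and of Krtdap from chromosome 7 are shown 5′ to 3′ up to the base before the start, with each TGANTCA match in capitals.
Sprr1a (chr3:92485882-92486131, minus strand): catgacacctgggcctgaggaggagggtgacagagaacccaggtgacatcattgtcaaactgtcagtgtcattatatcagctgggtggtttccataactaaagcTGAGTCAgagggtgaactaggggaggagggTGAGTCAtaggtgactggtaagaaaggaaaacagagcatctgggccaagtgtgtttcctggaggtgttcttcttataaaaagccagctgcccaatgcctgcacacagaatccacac
Sprr1b (chr3:92438780-92439029, minus strand): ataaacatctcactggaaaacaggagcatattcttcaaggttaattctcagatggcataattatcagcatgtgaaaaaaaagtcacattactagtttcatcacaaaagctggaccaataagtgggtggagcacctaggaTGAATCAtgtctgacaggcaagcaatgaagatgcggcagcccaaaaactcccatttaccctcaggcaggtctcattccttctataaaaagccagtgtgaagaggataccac
Sprr2h (chr3:92385435-92385684, plus strand): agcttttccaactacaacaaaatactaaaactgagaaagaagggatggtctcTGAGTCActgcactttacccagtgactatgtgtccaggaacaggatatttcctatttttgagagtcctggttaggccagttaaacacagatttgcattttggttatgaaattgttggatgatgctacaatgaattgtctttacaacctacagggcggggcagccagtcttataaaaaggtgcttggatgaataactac
Ivl (chr3:92573736-92573985, minus strand): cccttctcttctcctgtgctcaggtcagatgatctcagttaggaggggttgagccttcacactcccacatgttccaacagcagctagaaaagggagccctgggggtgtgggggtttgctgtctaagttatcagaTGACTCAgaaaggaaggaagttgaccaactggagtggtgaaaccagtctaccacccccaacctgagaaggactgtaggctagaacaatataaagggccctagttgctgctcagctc
Krtdap (chr7:30787655-30787904, plus strand): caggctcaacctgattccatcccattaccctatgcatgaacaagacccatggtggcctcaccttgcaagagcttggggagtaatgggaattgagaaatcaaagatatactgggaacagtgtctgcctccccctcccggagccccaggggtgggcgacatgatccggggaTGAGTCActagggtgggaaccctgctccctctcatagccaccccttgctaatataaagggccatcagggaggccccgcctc
Sprr1a held 2 such matches, of which the nearer began 116 bases before the start. The single matches of Sprr1b, Ivl and Krtdap began 111, 116 and 81 bases before it, and that of Sprr2h lay farther out at 198. A match describes the letters and does not show that a factor binds.

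Among the envelope precursors, Ivl, which encodes involucrin, an early crosslinking scaffold, was at 8.41 in NK, 5.44 in C5N, 9.17 in P6, 10.62 in MSCP5 and 10.70 in B9. Its non-spindle values ran from 4.02 over a median of 5.07 to 10.70, and its spindle values from 3.67 over a median of 4.06 to 4.32. Non-spindle lines thus split into B9 and MSCP5 at high level, B9ras at 6.84 and the rest at or below 5.83, and 9 of 12 lay above the highest spindle line. Sbsn, which encodes the secreted protein suprabasin, was at 11.82 in NK, 12.72 in C5N, 12.20 in P6 and 11.45 in MSCP5. Non-spindle lines ran from 5.85 over 9.87 to 13.61 in B9, and spindle lines from 5.64 over 6.52 to 7.81. Unlike Ivl, Sbsn was higher in C5N than in NK. For both genes all spindle values lay below both keratinocyte lines. Cnfn, which encodes cornifelin, an envelope component, and Calml3, a calmodulin-like gene of differentiating epithelium, each peaked in MSCP5, at 8.67 and 9.11. Cnfn was also at 7.46 in NK and 7.56 in P6 but at 3.95 in C5N, within the spindle range of 3.80 to 4.32. Calml3 was at 8.35 in NK, 5.79 in P6 and 4.82 in C5N, against a non-spindle median of 4.01. Both genes were thus marked in the same 3 lines and near their floor in most carcinoma lines.

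Dmkn and Krtdap encode small secreted proteins of suprabasal keratinocytes, dermokine and keratinocyte differentiation-associated protein, which stand side by side with Sbsn on chromosome 7. Dmkn was at 12.81 in NK, 12.96 in C5N, 12.30 in P6, 12.45 in MSCP5 and 12.41 in the keratinocyte-labelled line with conflicting labels. Non-spindle lines ran from 3.41 over 7.07 to 13.30 in B9, and spindle lines from 3.38 over 3.72 to 4.07. Non-spindle lines were therefore either high, at 9.28 or more in PDV, B9ras, MSCP5, MSCP1, PDVC57 and B9, or low, at 4.86 or less in the other 6. Krtdap was at 12.16 in NK, 8.51 in C5N, 11.04 in P6 and 10.81 in MSCP5, with its highest value of 13.22 in MSCP1. Its spindle values lay between 3.76 and 4.21. Krtdap followed Dmkn except in B9, where it was at 6.09, and in PDVC57, at 4.31.

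Sprr1a and Sprr1b encode SPRR proteins that crosslink into the envelope and are induced by stress. Sprr1b was at 12.55 in NK, 7.35 in C5N, 10.997 in P6 and 11.06 in MSCP5, with non-spindle values from 3.07 over 5.38 to 11.06 and spindle values from 3.21 over 3.45 to 3.96. Sprr1a was at 12.64 in NK, 8.65 in C5N, 11.79 in P6 and 12.65 in MSCP5. Its spindle values were 11.06 in MSN2, 9.34 in D3DP, 8.19 in H11, 5.23 in D3, 4.96 in CarB, 4.61 in A5 and 4.22 in CarC. Sprr1a was thus high in 3 spindle lines in which Sprr1b stayed at 3.64, 3.69 and 3.96. Over 26 lines both genes still correlated with r = 0.82, given as a description of lines that share families. Sprr2h was at 11.07 in NK and 10.41 in P6 but at 4.48 in C5N, and between 3.76 and 4.7 in spindle lines. Sprr2d peaked at 8.49 in B9 and Sprr3 at 8.16 in P6, each also high in MSCP5 at 8.29 and 8.14 and at the spindle level in C5N at 5.0 and 5.54. Sprr2i stood out in NK at 8.18 against 5.39 in the next highest line, B9, and Sprr2f in B9 at 6.53 and P6 at 5.82 against 3.32 in NK. Single Sprr genes therefore marked different lines of the same small set. Sprr2k and the pseudogene Sprr2j-ps varied by less than 2 log2 units. The Sprr2a genes share their probe sets and were not counted. The brightest of these 3 shared sets was at 12.59 in the keratinocyte-labelled line with conflicting labels, 11.61 in P6, 10.54 in NK, 10.28 in MSCP5 and 7.23 in C5N, with spindle values of 6.68 to 6.88.

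The Lce genes encode late envelope proteins that are added last. Of 15, 8 were higher in NK than in C5N by 2 log2 units or more. Lce1a1 was at 8.28 in NK and at 5.06 in C5N, 5.19 in P6, 4.94 to 5.24 in non-spindle lines and 4.99 to 5.28 in spindle lines. NK thus stood alone, with the next highest line, 2945CA, at 5.37. The second probe set of Lce1a1 ran from 2.67 to 6.44, also highest in NK, and correlated with the set used at r = 0.98 over 26 lines. Lce1b was at 7.26 in NK and 4.67 in C5N, with 4.18 to 5.13 in non-spindle and 4.34 to 4.76 in spindle lines. Lce1a2 showed the same pattern, with 6.87 in NK and at most 4.92 elsewhere. Lce3f differed, with 8.12 in P6, 7.95 in NK and 7.33 in B9. Lce1f was highest in MSC12 at 6.68, but its second probe set reached only 4.19 there. Lce1c, Lce1d, Lce1g, Lce1l, Lce1m and Lce3b varied by less than 2 log2 units over all lines. Several probe sets of this family, that used for Lce1a1 among them, carry suffixes that mark possible reading of near-identical copies. So did 11 of the 49 sets used, and values of single Lce and Sprr2 genes are therefore uncertain.

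Flg encodes filaggrin and Asprv1 the protease that trims profilaggrin. Flg was at 8.48 in NK, 6.28 in MSCP5, 3.22 in C5N and 3.37 in P6, with a median of 3.02 in non-spindle and 2.97 in spindle lines. Asprv1 was at 9.19 in NK, 7.16 in B9ras, 5.66 in C5N, 5.27 in MSCP5 and 4.97 in P6, with spindle values from 4.25 to 4.55. Both genes were therefore led by NK, and the papilloma line, rich in Sprr transcripts, showed little of either. Casp14, the caspase that helps degrade filaggrin, was flat in the probe set used, from 6.24 to 7.0, but its second probe set ran from 3.62 to 9.98. That set gave 7.83 in NK, 8.13 in C5N, 7.73 in MSCP5, 6.14 in P6 and 9.98 in the keratinocyte-labelled line with conflicting labels, with 3.70 to 4.55 across the other 11 non-spindle lines and 3.62 to 4.10 in spindle lines. The values of both sets correlated with r = 0.24 over 26 lines, so the reading of Casp14 turns on the probe set.

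Tgm1, the membrane-bound transglutaminase of the envelope, was at 9.15 in SN161, 8.65 in E4, 8.30 in C5N, 7.60 in NK, 7.40 in P6 and 7.25 in MSCP5. Non-spindle lines had a median of 5.15 and spindle lines ran from 4.23 to 5.03. Tgm1 thus peaked in lines in which Ivl was within its spindle range, at 4.08 in SN161 and 4.07 in E4. Tgm3 and Tgm5 varied by less than 2 log2 units.

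Cdsn encodes corneodesmosin, the glycoprotein of corneodesmosomes. It was at 11.06 in CarC, 9.96 in C5N, 8.95 in CarB, 8.62 in 2945CA, 8.60 in MSC12, 8.48 in SN161, 8.45 in NK and 7.94 in MSC7A, but at 5.08 in P6 and 5.96 in B9. Its non-spindle lines ran from 5.04 over 5.79 to 8.60 and its spindle lines from 5.67 over 6.23 to 11.06. Cdsn therefore ran across the pattern of most other genes. Its median correlation with the other 32 wide-ranging genes over 26 lines was -0.07, against 0.71 for Sprr1b and 0.65 for Spink5. Lce1h and Klk10 were also low by this measure, at 0.09 and 0.17. Dsg1a, a desmosomal cadherin of upper layers, was at 8.52 in MSCP5, 8.36 in NK, 6.82 in P6 and 4.36 in C5N, with spindle values of 3.32 to 3.73.

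Among the kallikreins, Klk8 was at 13.20 in B9, 10.68 in the keratinocyte-labelled line with conflicting labels, 9.92 in NK, 9.14 in P6, 8.95 in MSCP5 and 8.05 in C5N. Its non-spindle median was 8.39, from a lowest value of 5.0, and its spindle values ran from 4.66 over 5.03 to 6.62. All 9 non-spindle lines other than MSC12, MSC11B and MSC7A were at 6.53 or more. Klk10 was at 10.10 in both C5N and MSCP1, 7.70 in NK and 5.77 in P6, and reached 7.30 in the spindle line H11. Klk6 was at most 6.0 in any line and Klk5 and Klk7 varied by less than 2 log2 units. Of the inhibitors, Spink5, which encodes the kallikrein inhibitor LEKTI, was at 11.62 in NK, 10.94 in MSCP5, 9.58 in P6 and 8.82 in C5N. Its non-spindle lines ran from 3.22 over 3.76 to 10.94 and its spindle lines from 3.24 to 3.63. Cst6, which encodes cystatin M/E, an inhibitor of cysteine proteases, was at 10.09 in P6, 9.71 in NK, 9.19 in MSCP5 and 8.18 in C5N, and raised in 21 of 26 lines. Its spindle values ran from 4.88 over 6.95 to 8.43, so most spindle lines held Cst6 at levels well above its lowest line while Spink5 stayed at its floor.

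Of the lipid genes, Elovl4, which elongates very long fatty acids for ceramides, was at 10.37 in B9, 8.04 in NK, 7.85 in P6, 7.51 in MSCP5 and only 4.79 in C5N. Its spindle lines ran from 4.47 over 7.06 to 7.73 and overlapped the non-spindle lines at 4.73 to 10.37. Abca12, the lipid transporter of lamellar granules, was at 6.23 in C5N, 6.18 in P6 and 5.19 in NK, with a spindle range of 4.31 to 5.0. The lipoxygenase genes Alox12b and Aloxe3 varied by 0.64 and 0.74 over all lines.

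**Figure D3:**
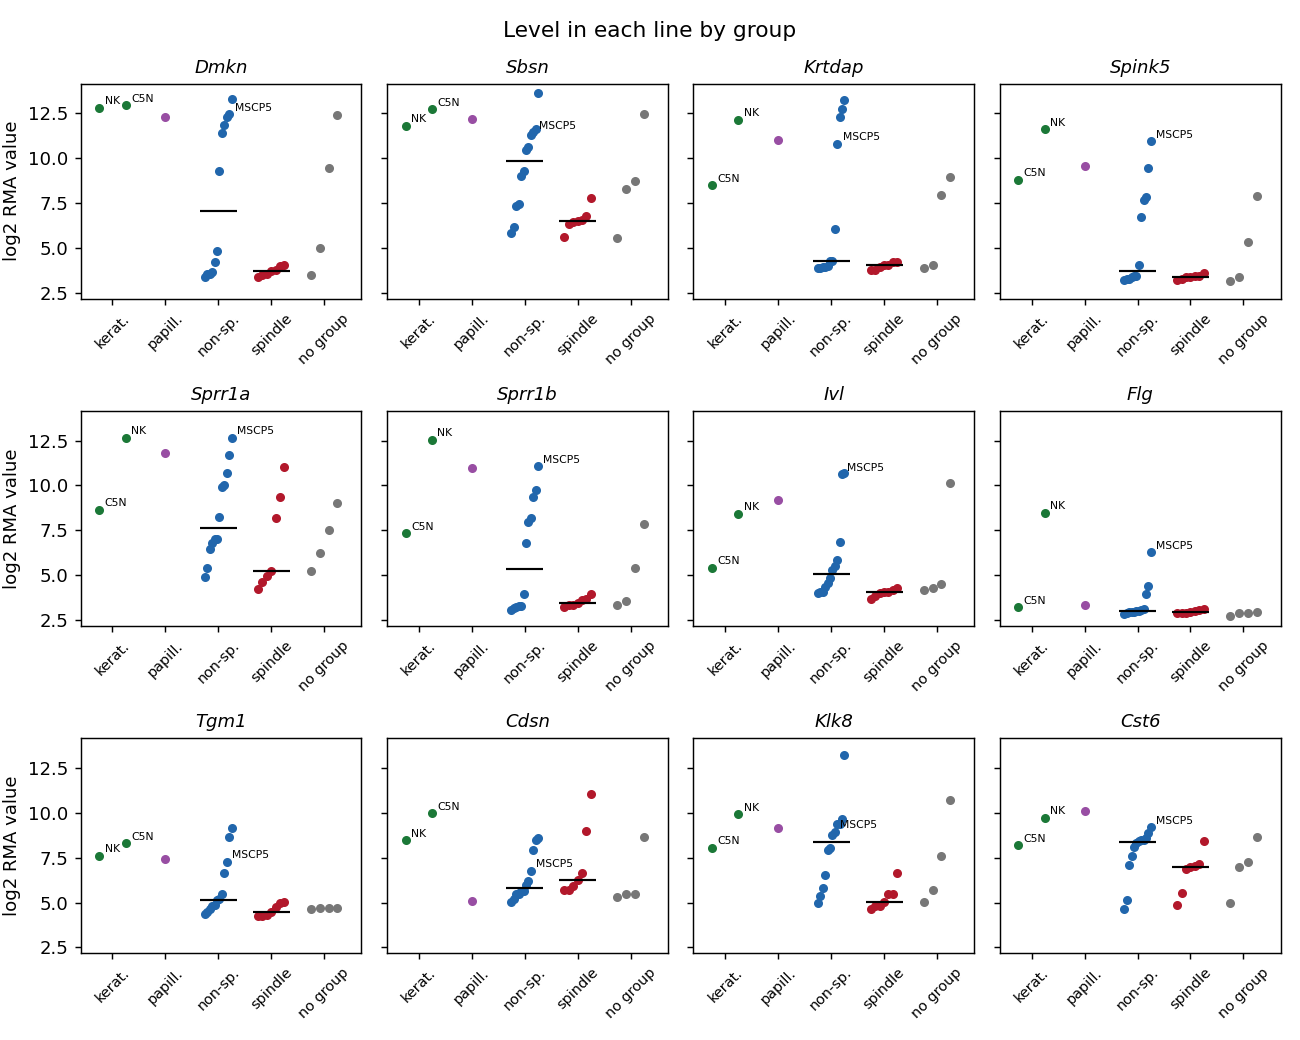
Log2 RMA value of 12 genes in each line by group (1 point per line, black bars are medians of the 12 non-spindle and the 7 spindle lines, NK, C5N and MSCP5 named). Non-spindle lines split into high and low lines for Dmkn, Krtdap and Spink5, while Sprr1a and Cdsn each reach 11.06 in a spindle line.

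The first comparison asked whether spindle carcinoma lines differ from non-spindle ones. Of the 49 genes, 38 were above the array median on at least 2 of the 21 grouped arrays and were tested with limma among 12497 genes, so the tested genes are not the whole group. The filter drew on all groups, so a gene low in every spindle line could pass only through other lines. Counts by direction in comparisons with spindle lines are therefore partly set by this filter, which all genes shared. The 11 left out were Alox12b, Klk5, Tgm3, Sprr2f, Sprr2j-ps and 6 Lce genes. With Benjamini-Hochberg adjustment over all genes at 0.05, 0 of 38 were called, against 0.064% of all genes in either direction and 0.016% lower. At an unadjusted p under 0.05, 10 of 38 were lower and 0 higher, where 9.25% of all genes were lower. In all, 33 of 38 differences were below 0, with a median difference of -0.51 against 0.04 over all tested genes, and the groups overlapped for every tested member, where all spindle lines lay below all non-spindle lines for 0.016% of all genes. Klk8 differed by -2.90 log2 units (SE 0.84, limma adjusted p = 0.0977), Sbsn by -2.93 (SE 0.87, adjusted p = 0.104) and Dmkn by -4.09 (SE 1.5, adjusted p = 0.145), none past the threshold. Sprr1b differed by -2.57 (SE 1.15), Spink5 by -2.17 (SE 1.02) and Ivl by -1.87 (SE 0.87), also not called. Cdsn differed the other way by 0.80 (SE 0.71, not called).

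The result changed with MSC12, MSC11B and MSC7A, the non-spindle lines whose basal marker means lay with the spindle lines. Because these lines were picked by marker values from the same arrays, calls made without them are no separate support for a difference. Without these 3 lines 10 genes were called, all lower in spindle lines, while 16% of all genes were then called in either direction. They were Klk8 (-3.82, limma adjusted p = 0.00195), Sbsn (-3.76, adjusted p = 0.00359), Dmkn, Cst6, Klk10, Sprr2h, Sprr1b, Sprr2k, Tgm1 and Elovl4, the last at -1.95 with an adjusted p of 0.0497. Without MSC11B alone, Klk8 and Sbsn were called, 2 of 38, where 3.81% of all genes were. Dmkn was at 3.41, 3.54 and 3.58 in the 3 lines and Sprr1b at 3.23, 3.07 and 3.27. Both genes were thus within or below the spindle range in all 3, and the part of the lower basal markers in this was not tested.

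The second comparison set non-spindle carcinoma lines against the keratinocyte lines. The limma fit called 2 of 38 genes, both lower in carcinoma lines, against 1.99% of all genes in either direction and 1.1% lower. Lce1a1 fell by 1.58 log2 units (SE 0.40) and Lce1b by 1.43 (SE 0.37), both with an adjusted p of 0.0468. Both calls rest on NK: the C5N value of Lce1a1 lay within the carcinoma range, leaving out NK moved its difference to 0.03 and leaving out C5N to -3.18, and Lce1b did not pass the filter without NK. Lce1a1 stayed called in 5 of 29 alternatives and Lce1b in 5 of 28. All told, 36 of 38 differences were below 0, with a median of -1.20 against 0.02 over all genes, and 16 were lower at an unadjusted p under 0.05 where 6.54% of all genes were. Basal keratinocyte markers moved with them, with a median of -2.62 and 8 of 9 below 0, while the 7 tested fibroblast markers had a median of 2.39, and their part in the result was not tested. Groups overlapped for every tested member, where 2.98% of all genes had every carcinoma line below both keratinocyte lines. Larger differences than the called ones did not pass the threshold, such as Dmkn at -5.06 (SE 2.40), Spink5 at -4.65 (SE 1.63) and Flg at -2.39 (SE 0.86), with adjusted p-values of 0.407, 0.193 and 0.208. With the second probe set of Casp14, chosen by the highest variance, Casp14 was lower by 3.67 log2 units (SE 0.63, adjusted p = 0.0033) and the only gene of the group called.

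The third comparison set spindle lines against the same keratinocyte lines, so it shares its controls with the second, and its calls are no separate support for it. The limma fit called 7 of 38 genes, all lower in spindle lines, against 5.39% of all genes in either direction and 2.96% lower. Dmkn fell by 9.15 log2 units (SE 2.52, adjusted p = 0.039), a 569-fold difference, from 12.88 to 3.73 in the group means. Spink5 fell by 6.82 (SE 1.71, adjusted p = 0.0247) and Sbsn by 5.69 (SE 1.47, adjusted p = 0.0288). Asprv1 fell by 3.05 (SE 0.69, adjusted p = 0.0138), Lce1a1 by 1.52 (SE 0.42), Lce1b by 1.37 (SE 0.39) and Abca12 by 1.00 (SE 0.26). The called genes thus spanned a secreted protein, an inhibitor, an envelope precursor, a filaggrin protease, 2 late envelope proteins and a lipid transporter. No Sprr gene, kallikrein or transglutaminase was called. Sprr1b differed by -6.42 (SE 1.94, adjusted p = 0.0573), Klk6 by -1.44 (SE 0.44, adjusted p = 0.0602) and Tgm1 by -3.38 (SE 1.00, adjusted p = 0.053). Krtdap, the second secreted protein, was not called either, at -6.32 (SE 2.42, adjusted p = 0.138). Of the 38 differences 37 were below 0, with a median of -1.61 against 0.04 over all genes, and Elovl4 was the exception. Dmkn, Spink5, Asprv1 and Lce1b, at most 4.07, 3.63, 4.55 and 4.76 in spindle lines, were below the array median in all of them. Such genes passed the filter only through other lines, so the counts of calls and directions are no separate support for a difference. The second probe set of Casp14 gave a fall of 4.14 (SE 0.67, adjusted p = 0.00126). At an unadjusted p under 0.05, 25 were lower, where 9.94% of all genes were. All spindle lines lay below both keratinocyte lines for 19 of 38 genes, and the same held for 10.1% of all tested genes. The filter bears on this count in the same way.

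Only 2 keratinocyte lines carry this comparison, and they set the count. Without NK only Abca12 was called, where 2.14% of all genes were, and without C5N 11 genes were, against 1.93% of all genes. Among these 11 were Flg, Dsg1a and 5 Lce genes but not Dmkn, Sbsn or Spink5, whose differences without C5N were -9.08 (SE 3.45), -5.23 (SE 2.01) and -8.23 (SE 2.29). Over all alternatives run, Dmkn lay between -9.22 and -8.28, Sbsn between -6.14 and -5.23 and Spink5 between -8.23 and -5.42. Dmkn stayed called in 20 of 30 alternatives, and Sbsn and Spink5 in 28 each. The call of Dmkn was lost with no filter and whenever any single spindle line was left out. With line families as a random block Lce1b was not called, and with the conflicting lines placed by cell type label Asprv1, Lce1a1 and Lce1b were not. Lce1a1 turned to 0.08 without NK. Leaving out a spindle line gave 3 calls without D3DP or MSN2 and 4 without D3, A5, H11, CarC or CarB, and Asprv1, Sbsn and Spink5 were called in each of these fits. The share of all genes called is not given for these fits, so their counts show only how the calls moved. The basal markers, with a median difference of -7.91 and 3 of 9 genes called lower, moved with the group, and their part in it was not tested.

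**Figure D4:**
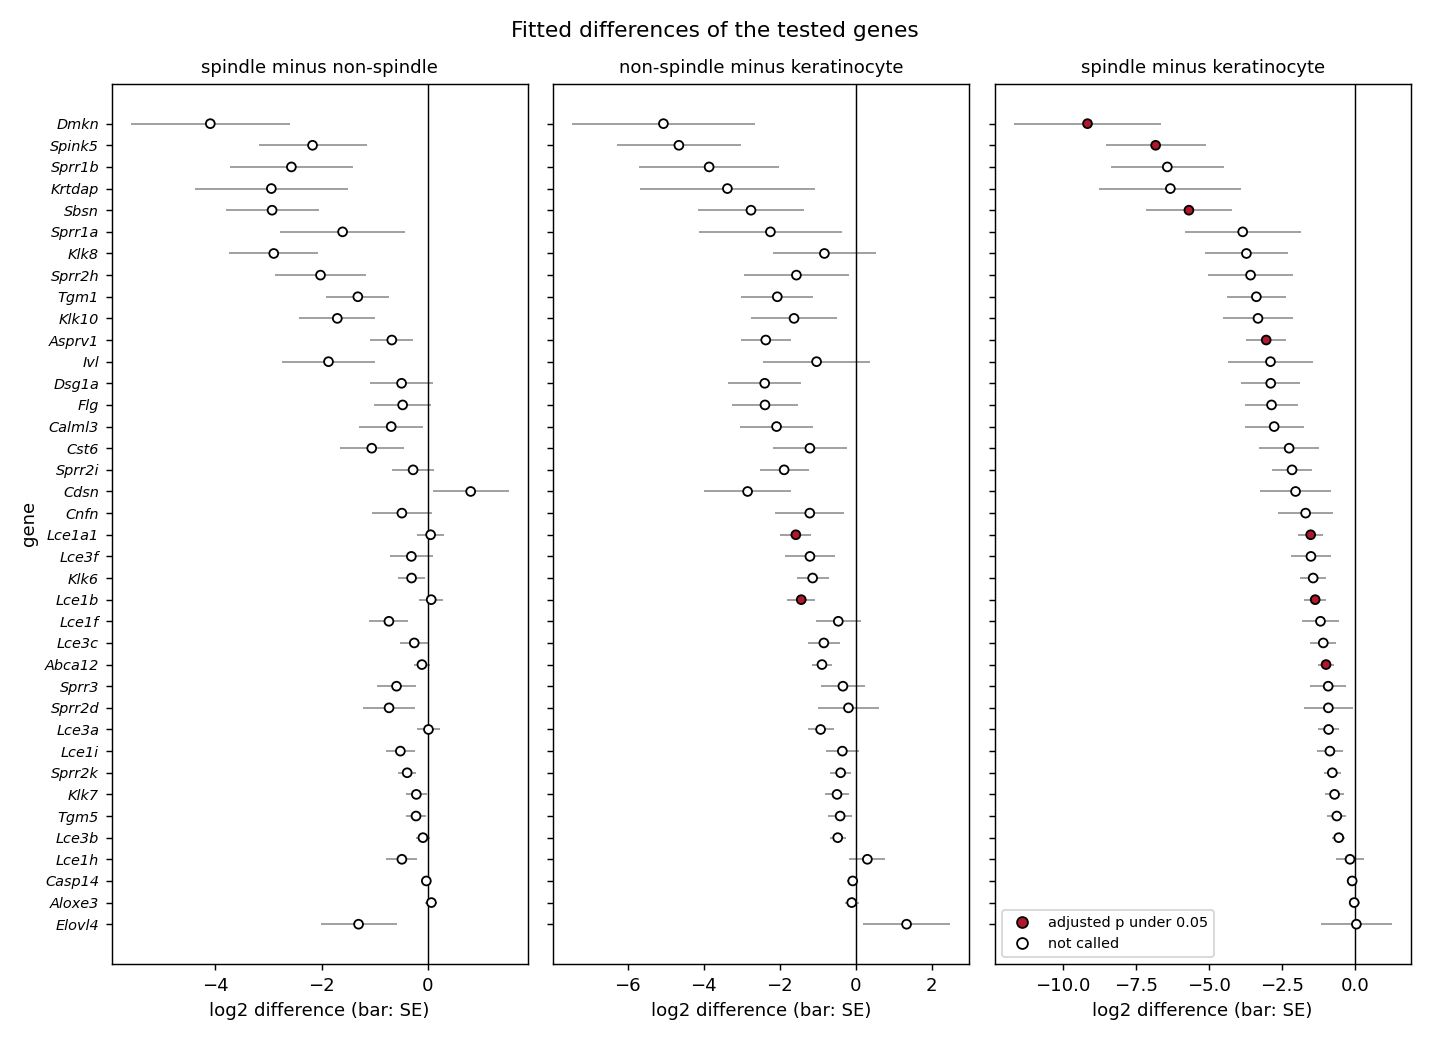
Fitted log2 difference with limma's SE for the 38 tested genes in the 3 comparisons, ordered by the third (red, Benjamini-Hochberg adjusted p under 0.05 over 12497 genes; the x axes differ). No gene is red in the first panel, Lce1a1 and Lce1b are in the second, and 7 genes are in the third.

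Other genes of the same processes were counted from lists. In spindle against keratinocyte lines, where 2.96% of all tested genes were lower, 2 of 9 tested further envelope genes were lower, including Ppl, which encodes periplakin, by 3.81 (SE 0.99, limma adjusted p = 0.0303). Among 24 regulators of differentiation 8 were lower and 1 higher. Grhl3, a transcription factor needed for the skin barrier, fell by 3.95 (SE 0.75) and Ehf, an epithelial ETS factor, by 5.29 (SE 1.19). Of further desquamation proteases and inhibitors 3 of 13 were lower, including Serpinb5 by 7.35 (SE 1.65), of further desmosome genes 2 of 6, including Pkp1, which encodes plakophilin, by 5.15 (SE 1.32), and of further barrier lipid genes 1 of 12, Nipal4, by 4.99 (SE 1.42). Suprabasal keratins gave 0 of 6 called, with 2 lower at an unadjusted p under 0.05. Between non-spindle and keratinocyte lines, where 1.1% of all genes were lower, 1 regulator was higher and 2 lower, and the protease genes Tmprss13 and Prss8 fell by 2.70 (SE 0.44) and 2.50 (SE 0.48). The AP-1 gene Fosl1 was the regulator that rose, by 3.21 (SE 0.50, adjusted p = 0.00149). No listed gene was called between spindle and non-spindle lines, where the medians of these 6 lists lay between -2.60 for further desmosome genes and -0.16 for suprabasal keratins, against 0.04 over all genes.

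The genes outside the group whose level over the 26 lines was most like the mean of its 39 members that exceeded the array median in 2 or more lines were Calm4, Krt16, Krt6b, Grhl3 and Evpl, with Pearson r of 0.93, 0.93, 0.93, 0.93 and 0.92. Krt16 and Krt6b are keratins of stressed and hyperproliferative epidermis, and Evpl encodes envoplakin, an envelope scaffold. Calm4 peaked in NK at 12.18 and Krt6b in MSCP5 at 14.19, while Krt16 peaked in P6 at 13.50. Lor, which encodes loricrin, the main envelope protein, and which was named after its values were seen, was at 9.53 in NK, 6.37 in C5N and 6.53 in P6, with 6.60 to 7.63 in non-spindle and 6.47 to 6.87 in spindle lines. Loricrin thus stood out in NK alone, as Lce1a1 did.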

How the data were processed

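RNA of 26 mouse skin lines was hybridised to Affymetrix M430 2.0 arrays, 1 per line. The deposited table holds log2 values that the authors made with RMA, per the submitters' processing notes. This method subtracts background, forces equal distributions on all arrays and summarises the probes of a set, so values near the floor understate fold changes, and its version is not given in the sources used here. Of 45037 probe sets, 34945 had 1 gene symbol, 932 several and 9160 none, and 34741 matched a RefSeq gene of GRCm38.p6. The set with the highest mean represented a gene.

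Lines were grouped where cell type label and flags agreed. Genes above the array median on 2 or more of the 21 grouped arrays (12497 of 18193) were fitted in 1 model of 3 groups with limma 3.58.1 (R 4.3.3, lmFit and eBayes) and called at a Benjamini-Hochberg adjusted p under 0.05. The fit was tested on simulated data. Every member of the gene group could be named, with the 3 largest differences of each further list and the 5 genes most like the members' mean. The members and all lists were chosen with earlier results of these data known. Alternatives changed the filter, the probe set, the centring, the lines in a group, the variance prior and the independence of lines. The filter over all 26 arrays was chosen after seeing the data. MSC12, MSC11B and MSC7A were left out together because of their marker values in these same data. Genes that sample titles or descriptions name are not reported here.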

Additional observations from a re-analysis of the deposited data

Results flagged for a closer look

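In the spindle group of 7 lines, 38 genes were checked for 1 line far from the others, by the share of the group's range that separates the outermost line from the next (critical share 0.568). The check picked out 3, and chance picks out about 1 in 20 groups. Klk8 was highest in D3 at 6.62, with the next line at 5.48. Calml3 was lowest in D3 at 3.42, with the next at 3.78, a value near the floor of the array. Lce1i was highest in D3DP at 7.65, with the next at 7.03.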

How the results depend on the processing

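For spindle against non-spindle lines the count of called genes stayed at 0 under every alternative run except without MSC12, MSC11B and MSC7A, which gave 10, and without single lines, which gave 0 to 2. For non-spindle against keratinocyte lines the count of 2 fell to 1 with no filter, with the highest-variance probe sets or with conflicting lines placed by their cell type label, and to 0 with line families (by name) as a random block, without MSC12, MSC11B and MSC7A, or with only the groups compared in the fit; the 1 gene was Klk5, Casp14 or Abca12 in turn. Leaving out single lines gave 0 to 8. For spindle against keratinocyte lines the count of 7 became 4 with no filter and 12 with only the groups compared, and 1 to 11 without single lines. It was 6 with line families as a block, without Lce1b, and 6 with conflicting lines placed by label, of which 4 were among the 7. Without C5N, Lce1a1 was at -3.18 for non-spindle and -3.13 for spindle lines, and without NK it turned to 0.0328 and 0.084, each fit taking the spread of the other groups for the single line left. Shares of all genes called are not set beside the counts in this section, so the counts show only how the calls moved. Median centring, the trended robust prior and the filter over all 26 arrays changed none of the 3 counts. The cause of the other changes was not tested. No paired analysis was possible because replicate numbers follow the order of deposition and pair nothing. Probe sets near the array floor limit what can be said of Lce1l, Lce1m and Alox12b, and 2 control lines limit every comparison with keratinocytes.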
